A study of Mus musculus with 3 samples.

Results

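The neural BAF subunit switch genes are 8 genes of the SWI/SNF (BAF) chromatin remodelling complex that exchange between neural progenitors and neurons: Actl6a, Actl6b, Dpf1, Dpf2, Dpf3, Phf10, Ss18 and Ss18l1. They were found by symbol in the gene tables of all 3 tumours, and are 8 of 31053 genes in the matrices. All 8 passed the filter on low counts in every fit. The samples are 3 murine rhabdoid tumours of the R26-SHH group, each from a mouse of genotype Rosa 26-CreERT2::Smarcb1flox/flox on a mixed 129/SV and C57BL/6 background, in which tamoxifen induces deletion of Smarcb1, a core subunit gene of the same complex. The Cre recombinase is driven from the Rosa26 locus and is not restricted to a cell type, and the labels give no age. All cells carry the floxed alleles, so every comparison was made between cell types of the same tumours, and no Smarcb1-intact tumour was analysed here. Cells were profiled by scRNAseq on droplets, which counts unique molecular identifiers (UMIs) at the 3′ end of transcripts.

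BAF complexes use the energy of ATP to move nucleosomes. In neural progenitors the complex carries the actin-related protein ACTL6A (BAF53a), a double PHD finger protein of the PHF10 (BAF45a) or DPF2 (BAF45d) type, and SS18. When progenitors leave the cell cycle and become neurons, these are replaced by ACTL6B (BAF53b), DPF1 (BAF45b) or DPF3 (BAF45c), and SS18L1 (CREST), a calcium-responsive transactivator. DPF2 and SS18 are also found in many tissues outside the brain. REST represses many neuronal genes in non-neuronal cells, and miR-9-3p (miR-9*) is known to act on the 3′UTR of Actl6a.

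The promoters of the 3 members that were higher in Stmn2+ cells, and of Actl6a, the partner that Actl6b replaces, are shown because the levels of these genes separate the gates described below. RefSeq (GRCm38.p6) gave 7 of the 8 members a window of 250 bases before to 50 bases after the start that RefSeq gives. For Actl6a this start lies inside the gene as the GENCODE annotation places it (chr3:32706298-32726973), so its window does not cover the first start of that annotation. Capitals mark CCAAT and the letters TCAGCACC and GGACAGC, which belong to the left and right parts of the REST motif, on either strand.
Actl6b, chr5:137553296-137553595, plus strand: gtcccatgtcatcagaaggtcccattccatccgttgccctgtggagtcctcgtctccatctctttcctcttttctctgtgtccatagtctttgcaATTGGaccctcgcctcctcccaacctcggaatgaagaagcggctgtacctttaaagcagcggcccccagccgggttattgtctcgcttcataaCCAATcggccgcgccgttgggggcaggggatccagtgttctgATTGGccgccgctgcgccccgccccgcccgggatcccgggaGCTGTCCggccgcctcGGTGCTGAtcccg
Dpf1, chr7:29303755-29304054, plus strand: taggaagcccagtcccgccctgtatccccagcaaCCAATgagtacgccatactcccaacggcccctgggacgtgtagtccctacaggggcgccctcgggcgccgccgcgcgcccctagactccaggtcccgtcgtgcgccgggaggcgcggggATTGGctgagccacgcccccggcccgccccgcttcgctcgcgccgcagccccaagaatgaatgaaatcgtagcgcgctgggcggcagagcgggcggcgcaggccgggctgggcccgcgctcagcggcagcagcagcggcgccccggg
Dpf3, chr12:83487687-83487986, minus strand: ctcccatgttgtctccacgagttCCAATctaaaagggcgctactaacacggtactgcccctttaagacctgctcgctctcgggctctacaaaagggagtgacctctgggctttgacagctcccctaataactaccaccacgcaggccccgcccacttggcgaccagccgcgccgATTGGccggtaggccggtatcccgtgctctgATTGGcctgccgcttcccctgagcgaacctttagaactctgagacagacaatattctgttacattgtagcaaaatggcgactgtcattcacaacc
Actl6a, chr3:32708296-32708595, plus strand: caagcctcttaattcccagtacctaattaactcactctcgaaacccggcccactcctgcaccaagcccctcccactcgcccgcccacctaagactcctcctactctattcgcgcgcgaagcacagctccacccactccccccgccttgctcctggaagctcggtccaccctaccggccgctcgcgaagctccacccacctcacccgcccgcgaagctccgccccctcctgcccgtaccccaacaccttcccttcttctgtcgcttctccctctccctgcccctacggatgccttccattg

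The Actl6b window held both REST motif parts as reverse complements, GGACAGC from 22 and TCAGCACC from 38 bases after the start. TCAGCACC was in 1.65%, GGACAGC in 6.56% and the pair in 0.131% of the 32851 RefSeq promoter windows of the same length, on either strand. None of the other 6 member windows held either of them. CCAAT was in 3 places of the Actl6b window, 3 of the Dpf3 window and 2 of the Dpf1 window, once in that of Dpf2, and not in those of Actl6a, Phf10 and Ss18l1. It was in 37.4% of all windows. These matches of letters are descriptions of the sequence, and binding was not measured.

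The mature miR-9-3p of RefSeq is shown with its seed (bases 2 to 8) in capitals, beside the stretch of the Actl6a 3′UTR that holds the matching 7 bases, in capitals.
mmu-miR-9-3p: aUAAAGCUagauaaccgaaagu
Actl6a 3′UTR, match at chr3:32726640-32726646, plus strand: caacgtctgtAGCTTTAgtaca

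Among the longest annotated 3′UTRs of the 8 members (GENCODE M21, GRCm38), that of Actl6a held 1 match and those of the other 7 held 0. A match was present in 11.7% of 21101 protein-coding genes. The miRNA itself was not measured.

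The tumours held 12467, 9485 and 6428 barcodes with 79529921, 40151353 and 67645602 UMIs. After filters and removal of doublets, 8851, 7111 and 4854 cells remained, with median depths of 7133, 2369 and 8070 UMIs. The tumours shared 22 to 42 barcodes, at most 0.443% of either. Cells were gated by marker genes that include no member. Sox2+ cells had at least 1 UMI of Sox2, a progenitor marker, and none of Stmn2, a neuronal marker, and Stmn2+ cells the reverse. Other cells were called immune, endothelial, mural, oligodendrocyte lineage or astrocyte when at least 4 markers of that list and enough of its UMIs were seen. Levels are given as UMIs per 1000000 UMIs of the gate (CPM). The Sox2+ gate held 3879, 1792 and 2349 cells, the Stmn2+ gate 325, 658 and 81 cells, and 481, 421 and 145 cells had UMIs of both genes. A further 2622, 2725 and 1751 cells (29.6, 38.3 and 36.1%) had neither gene and were in or near no other gate. They entered no comparison. The Stmn2+ cells were shallower, with medians of 2668, 1749 and 2563 UMIs against 9814, 7500 and 19207 in the Sox2+ gate. The oligodendrocyte lineage (6 cells) and astrocyte (10 cells) gates of tumour 3 were under the minimum of 20 cells and gave no sum.

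Smarcb1, the targeted gene, checks the gates. It stood at 0.485, 0.786 and 0.526 CPM in Sox2+ cells, and at 3 UMIs in all in the Stmn2+ cells of the 3 tumours. It was at 20.8 to 29.6 CPM in immune, 39.2 to 54.5 in endothelial, 61.6 to 77.2 in mural cells, and 83.4 and 41.3 in the oligodendrocyte lineage. The astrocyte gate had 0 Smarcb1 UMIs in tumour 1 and 29.3 CPM in tumour 2, so this gate was not alike in the 2 tumours. The summed level of the 11 neuronal markers was 2537 to 3681 CPM in Stmn2+ and 306 to 565 in Sox2+ cells. The 9 progenitor markers summed to 2455 to 3055 in Stmn2+ against 3857 to 5534 in Sox2+ cells, and 7 or 8 of the 9 had a UMI in the Stmn2+ gate, where Sox2 is at 0 by rule. In the Stmn2+ cells of tumour 3 the progenitor markers (2814) summed to more than the neuronal markers (2537), so the gate is called by its rule and not as neurons. The 15 cycling markers summed to 431 and 446 in the Stmn2+ cells of tumours 1 and 2, and to 2182 in those of tumour 3, above the 1509 of its Sox2+ cells.

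Of the 8 members, 3 were called higher in Stmn2+ than in Sox2+ cells and none lower (edgeR's quasi-likelihood test on sums per tumour, with the tumour as block and Benjamini-Hochberg adjustment over 13597 genes, threshold 0.05). All 3 are neuronal partners: Actl6b, Dpf3 and Dpf1. Over all genes tested, 10.7% were called in this comparison and 6.07% were called higher. The median log2 difference was 0.16 over the 8 members and -0.09 over all genes. DESeq2 called none lower either, and at an unadjusted p under 0.05 in edgeR 2 members, Actl6a and Ss18, were lower.

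Actl6b (ENSMUSG00000029712, chr5:137553517-137569582), the neuronal actin-related subunit, stood at 52.5, 45.7 and 23.4 CPM in the Stmn2+ cells of tumours 1 to 3 and at 3.44, 4.84 and 0.757 in their Sox2+ cells. The lowest Stmn2+ value was well above the highest Sox2+ value. The log2 difference was 3.72 ± 0.35 (SE, n = 3 tumours, adjusted p = 4.68e-06, edgeR), and the gene was called in all 15 alternative analyses, with log2 differences of 3.51 to 4.51. Cells with UMIs of both Sox2 and Stmn2 lay between, at 12.5, 15.3 and 5.42.

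Dpf3 (ENSMUSG00000021221, chr12:83213745-83487716, minus strand), which encodes a reader of modified histone tails, stood at 12.6, 18.7 and 11.7 CPM in Stmn2+ and at 2.86, 7.53 and 1.58 in Sox2+ cells. Its log2 difference was 1.78 ± 0.43 (SE, n = 3, adjusted p = 0.0116, edgeR). Dpf1 (ENSMUSG00000030584, chr7:29303951-29318243), its paralogue, stood at 23.9, 18.7 and 16.1 against 5.19, 6.55 and 5.63. Its log2 difference was 1.58 ± 0.43 (SE, n = 3, adjusted p = 0.0224, edgeR). For both genes the tumours of the gates did not overlap. These 2 calls rest on 65 and 85 UMIs in the Stmn2+ gates and were lost without tumour 1 (adjusted p = 0.208 for Dpf3 and 0.178 for Dpf1) and without tumour 2 (0.108 and 0.102), and without the tumour as block (0.178 and 0.136). Both were called in the other 12 alternatives.

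Ss18l1 (ENSMUSG00000039086, chr2:180042509-180070201), the fourth neuronal partner, was at 19.3, 26.5 and 13.1 CPM in Stmn2+ and 12.5, 16.8 and 8.83 in Sox2+ cells. It was higher in 3 of 3 tumours, but the gates overlapped, since the Sox2+ cells of tumour 2 lay above the Stmn2+ cells of tumour 3. The log2 difference of 0.44 ± 0.24 (SE) was not called (adjusted p = 0.262, edgeR). It was called in 2 of 15 alternatives, in DESeq2 (0.63, adjusted p = 0.0321) and with a neuron gate of 3 neuronal genes (0.89, adjusted p = 0.00747).

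**Figure D1:**
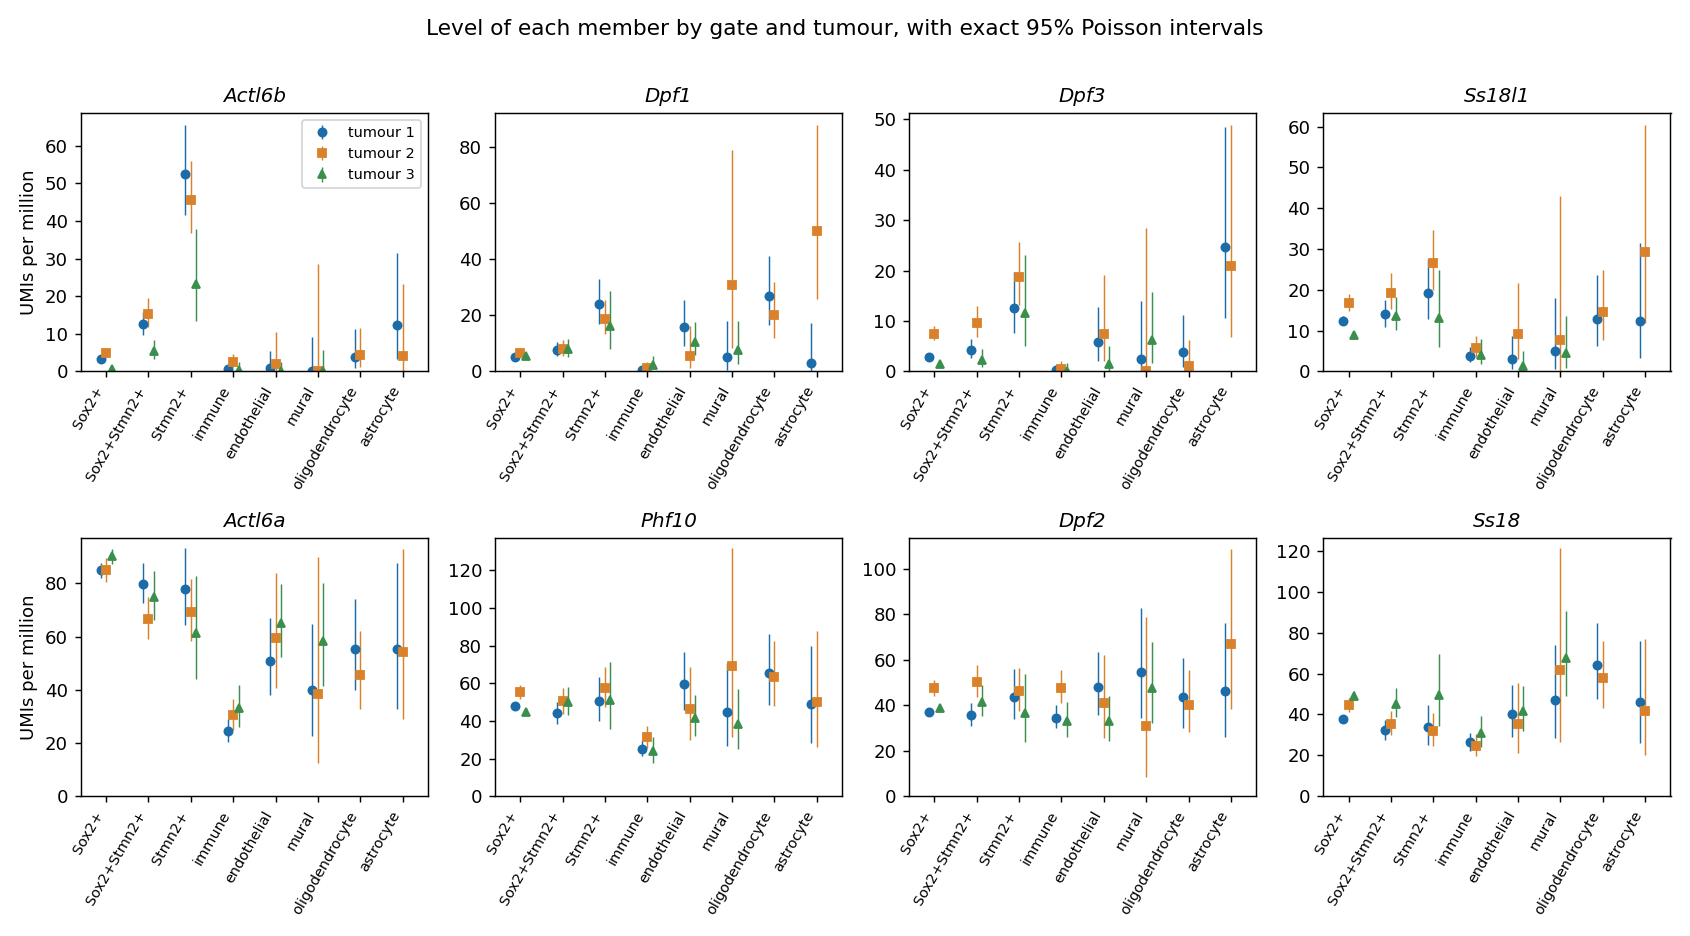
CPM (vertical axes, each panel with its own scale) of the 4 neuronal partners (top) and the 4 progenitor or general partners (bottom) by gate, with 1 point per tumour and exact 95% Poisson intervals. Actl6b stands apart in the Stmn2+ gate (23.4 to 52.5), while Dpf2 and Ss18 overlap between the Sox2+ and Stmn2+ gates.

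None of the 4 progenitor or general partners was called. Actl6a (ENSMUSG00000027671, chr3:32706298-32726973) was at 77.7, 69.2 and 61.3 CPM in Stmn2+ and 84.9, 84.9 and 90.1 in Sox2+ cells. It was lower in 3 of 3 tumours and the gates did not overlap. The log2 difference of -0.50 ± 0.16 (SE) just missed the threshold (adjusted p = 0.0505, edgeR), and the call was made in 1 of 15 alternatives, with at least 2 UMIs of Sox2 or Stmn2 in the gates (-0.56, adjusted p = 0.0312). Over the alternatives the difference ranged from -0.56 to -0.28 (adjusted p up to 0.375), and was smallest with the gate of 3 neuronal genes (-0.28), without tumour 3 (-0.28) and with total-count scaling (-0.29). Ss18 (ENSMUSG00000037013, chr18:14624198-14682914, minus strand), which binds the catalytic core, was at 33.9, 31.9 and 49.7 in Stmn2+ and 37.5, 44.7 and 49.2 in Sox2+ cells, with overlapping ranges. It differed by -0.43 ± 0.15 (SE) on the log2 scale (adjusted p = 0.0778, edgeR). With the stricter gate of 2 UMIs it was called lower (-0.81, adjusted p = 0.00701), while it was -0.27 without tumour 2 and -0.22 with total-count scaling (adjusted p = 0.655 and 0.440).

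Phf10 (ENSMUSG00000023883, chr17:14945009-14961273, minus strand) and Dpf2 (ENSMUSG00000024826, chr19:5896516-5913010, minus strand) gave no direction. Phf10 was at 50.5, 57.4 and 51.1 CPM in Stmn2+ and 48.0, 55.3 and 44.9 in Sox2+ cells. Its log2 difference was -0.11 ± 0.16 (SE, adjusted p = 0.702, edgeR) with the TMM factors of the main fit and 0.10 with total-count scaling. Dpf2 was at 43.8, 46.2 and 36.5 against 37.1, 47.4 and 38.7, and differed by -0.16 ± 0.19 (SE) on the log2 scale (adjusted p = 0.638, edgeR), or 0.05 with total-count scaling. Against the main fit, total-count scaling moved the median of all genes by 0.21 in this comparison, -0.63 in immune, -0.12 in endothelial and 0.11 in oligodendrocyte lineage cells, and RLE size factors by 0.17, 0.03, 0.15 and 0.20. Of all genes called in Stmn2+ against Sox2+ cells, 56.6% were higher in the main fit, 82.2% with RLE size factors and 87.3% with total-count scaling.

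**Figure D2:**
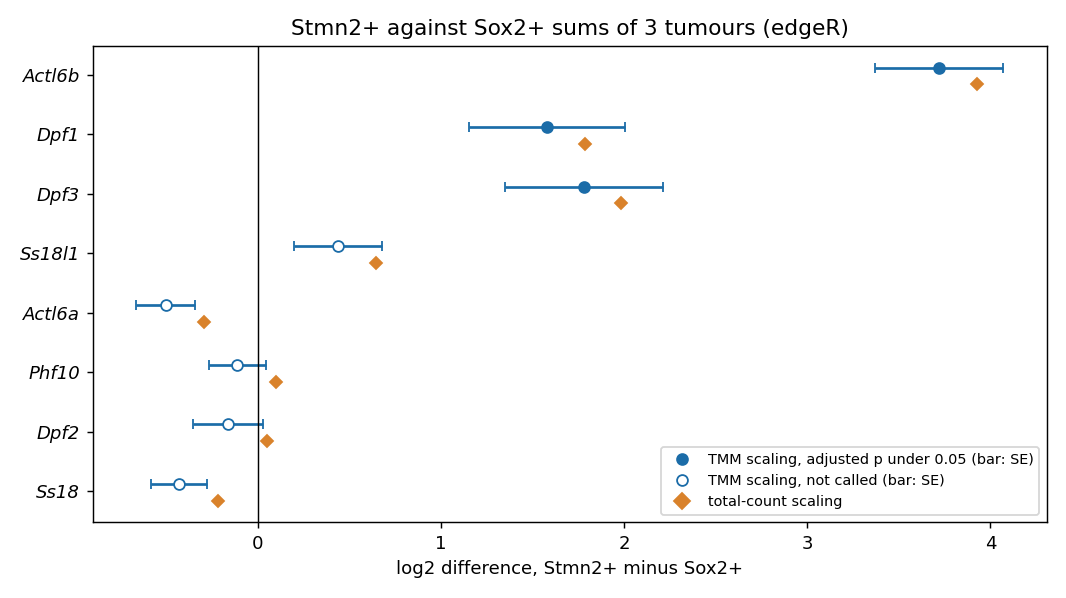
Log2 difference of each member between Stmn2+ and Sox2+ sums of 3 tumours (horizontal axis), with edgeR's TMM scaling (circles, filled where called, bars of 1 SE) and with total-count scaling (diamonds). Actl6b (3.72), Dpf3 (1.78) and Dpf1 (1.58) are called, and Phf10 and Dpf2 change sign between the scalings.

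Expressed as a share of the UMIs of its family, which total-count or TMM scaling cannot change, the neuronal partner was higher in Stmn2+ cells of every tumour. Actl6b gave 40.3, 39.7 and 27.6% of the Actl6a and Actl6b UMIs in Stmn2+ cells (79 of 196, 93 of 234 and 16 of 58; exact 95% binomial intervals 33.4 to 47.5, 33.4 to 46.3 and 16.7 to 40.9%). In Sox2+ cells it gave 3.90, 5.40 and 0.833%. The difference was 32.5 ± 5.09 percentage points (SD, n = 3). Intervals and floors cover counting error only. Since reads near the 3′ end of different genes are not caught equally, a share is compared between gates and not read as an amount of protein.

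Dpf1 and Dpf3 together gave 27.9, 26.5 and 24.1% of the UMIs of Dpf1, Dpf2, Dpf3 and Phf10 in Stmn2+ cells, against 8.64, 12.1 and 7.94% in Sox2+ cells, a difference of 16.6 ± 2.46 points (SD, n = 3). Ss18l1 gave 36.2, 45.4 and 20.9% of the Ss18 and Ss18l1 UMIs, against 24.9, 27.3 and 15.2%, a difference of 11.7 ± 6.20 points (SD, n = 3). The exact 95% intervals of the Ss18l1 share overlap between the gates in tumour 1 (25.8 to 47.8% and 23.1 to 26.8%) and tumour 3 (10.0 to 36.0% and 13.9 to 16.6%), and not in tumour 2 (36.2 to 54.8% and 24.4 to 30.2%). Each of the 3 differences was positive in 3 of 3 tumours, with p = 0.25 when the signs of the tumours were permuted (exact, two-sided), the smallest p that 3 tumours allow.

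**Figure D3:**
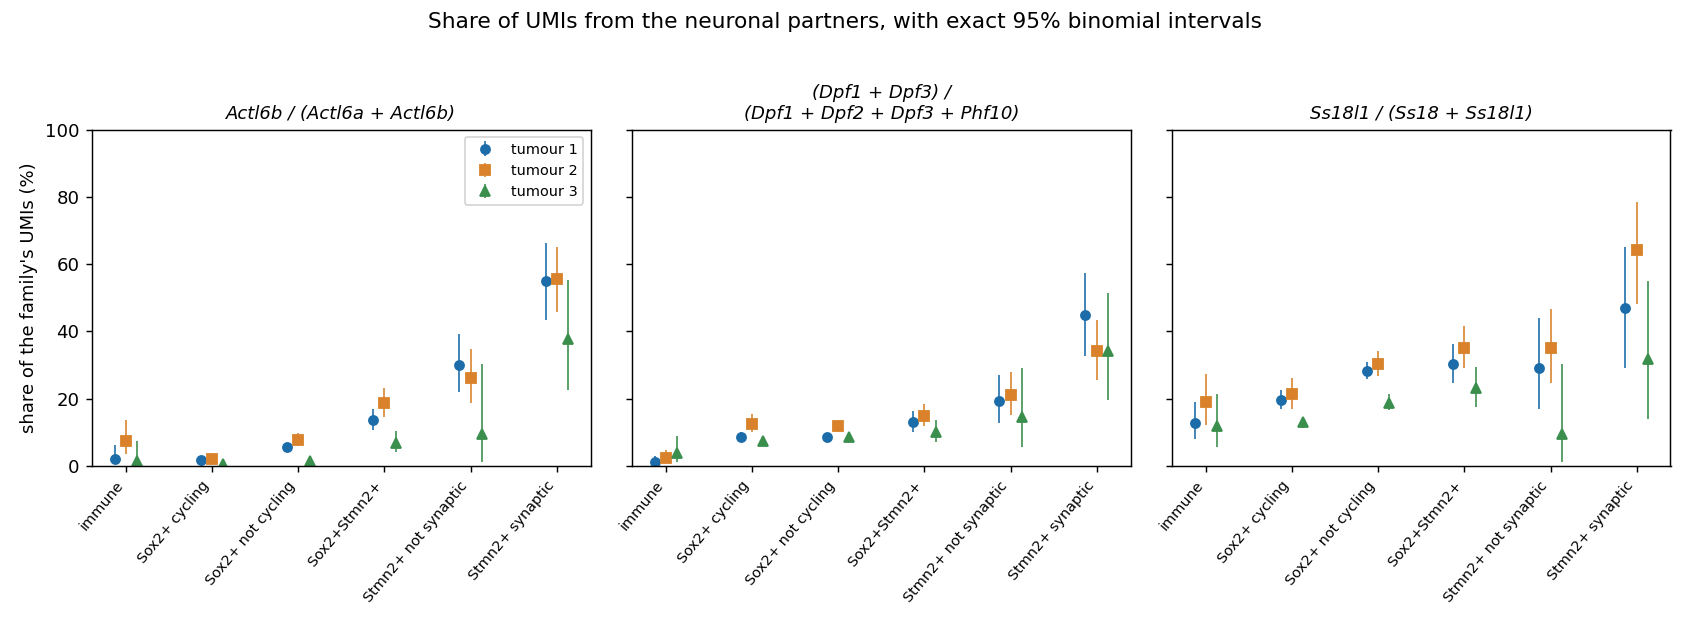
Share of the UMIs of each family that come from its neuronal partners (vertical axis, %), by gate, with 1 point per tumour and exact 95% binomial intervals. The Actl6b share is 0.833 to 5.40% in all Sox2+ cells and 37.8 to 55.6% in Stmn2+ cells with synaptic genes.

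Within the Sox2+ gate, cells with at least 2 cycling genes (1116, 404 and 1105 cells) were compared with the other Sox2+ cells (2763, 1388 and 1244 cells). Actl6b was lower in the cycling cells, at 1.86, 2.09 and 0.55 CPM against 4.45, 6.30 and 1.07, a log2 difference of -1.36 ± 0.33 (SE, n = 3, adjusted p = 0.0173, edgeR). It was the only member of 8 called by edgeR, where 3.71% of 14302 genes were called. The ranges overlap between tumours, since the non-cycling cells of tumour 3 lay below the cycling cells of tumours 1 and 2, but the order held in 3 of 3 tumours. The call was lost in 7 of 15 alternatives, among them without tumour 1 (adjusted p = 0.473), without tumour 2 (0.370), without the tumour as block (0.736), in cells with at least 2000 UMIs (-1.28, 0.0520) and with gates from thinned UMIs (-1.32, 0.194).

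Actl6a was higher in cycling Sox2+ cells, at 98.3, 102.3 and 99.2 CPM against 76.3, 75.8 and 76.1, and the tumours did not overlap. Its log2 difference of 0.32 ± 0.13 (SE) was not called by edgeR (adjusted p = 0.283), and was called by DESeq2 (0.36, adjusted p = 0.000413) and with gates from thinned UMIs (0.62, adjusted p = 0.0129). Ss18l1 was at 9.75, 12.7 and 7.65 in cycling against 14.2, 18.9 and 10.6 in the other Sox2+ cells. It differed by -0.60 ± 0.19 (SE) on the log2 scale (adjusted p = 0.0929, edgeR) and was called by DESeq2 (-0.55, adjusted p = 0.000897). Dpf1 (6.89 ± 1.61 against 5.12 ± 0.478 CPM) and Dpf3 (2.80 ± 2.12 against 4.84 ± 3.44 CPM) were not called (SD, n = 3, adjusted p = 0.779 and 0.241, edgeR). Phf10, Dpf2 and Ss18 had mean levels of 48.5, 41.4 and 46.1 in cycling and 49.8, 40.9 and 41.8 in non-cycling cells, without a call. Cycling cells were deeper, with medians of 12807, 10893 and 23949 UMIs against 8836, 6871 and 15968, and the part of depth in the differences of Dpf1, Dpf2, Dpf3, Phf10 and Ss18 was not tested.

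The Stmn2+ gate was split by at least 2 distinct genes of the synaptic list, as a description with no test. The cells with synaptic genes (69, 158 and 22 cells) were deeper than the rest, with medians of 6987, 3726 and 13244 against 2082, 1434 and 1390 UMIs, and the part of depth was not tested. Actl6b stood at 92.5, 79.2 and 41.4 CPM with synaptic genes and at 34.0, 25.8 and 5.77 without. Every tumour was higher with synaptic genes, and its tumour 3 value without rests on 2 UMIs. Dpf1 was at 50.4, 31.7 and 29.6 with synaptic genes against 11.7, 10.9 and 2.89, and Ss18l1 at 31.5, 35.6 and 20.7 against 13.6, 21.1 and 5.77. The tumour 3 values without synaptic genes rest on 1 UMI for Dpf1 (exact 95% interval 0.0731 to 16.1) and 2 for Ss18l1 (0.699 to 20.9), and the Ss18l1 intervals overlapped in all 3 tumours. Dpf3 was at 12.6, 21.1 and 8.87 with synaptic genes and 12.6, 17.2 and 14.4 without, from 3 and 5 UMIs in tumour 3 (1.83 to 25.9 and 4.69 to 33.7). Actl6a averaged 69.0 ± 6.21 and 68.7 ± 12.4 (SD, n = 3). When the gate was split by depth instead, at 2000 UMIs, Actl6b was at 53.3, 47.6 and 23.0 in the deeper and 45.2, 38.5 and 30.8 in the shallower cells. The shallower values rest on 7, 17 and 1 UMIs, and the exact 95% interval of the last is 0.779 to 171 CPM.

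Over the 5 groups in order from cycling Sox2+ cells to Stmn2+ cells with synaptic genes, the Actl6b level was higher at every step in 3 of 3 tumours. In tumour 3 the step from cells with both genes (5.42, exact 95% interval 3.26 to 8.46) to Stmn2+ cells without synaptic genes (5.77, from 2 UMIs, 0.699 to 20.9) was within counting error. Dpf3 and Ss18l1 were higher at every step in 1 tumour each, and Dpf1 in none. No progenitor partner fell at every step in any tumour: most of the difference in Actl6a lay between the cycling Sox2+ cells and the rest. The Actl6b share of the pair went from 1.47 ± 0.796% in cycling Sox2+ cells over 4.86 ± 3.19, 12.98 ± 5.98 and 22.0 ± 10.95% to 49.5 ± 10.1% (SD, n = 3) in Stmn2+ cells with synaptic genes. Rest had the opposite order of means at the ends, at 98.7 ± 6.38 CPM in cycling Sox2+ cells and 25.5 ± 16.9 in Stmn2+ cells with synaptic genes (SD, n = 3).

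**Figure D4:**
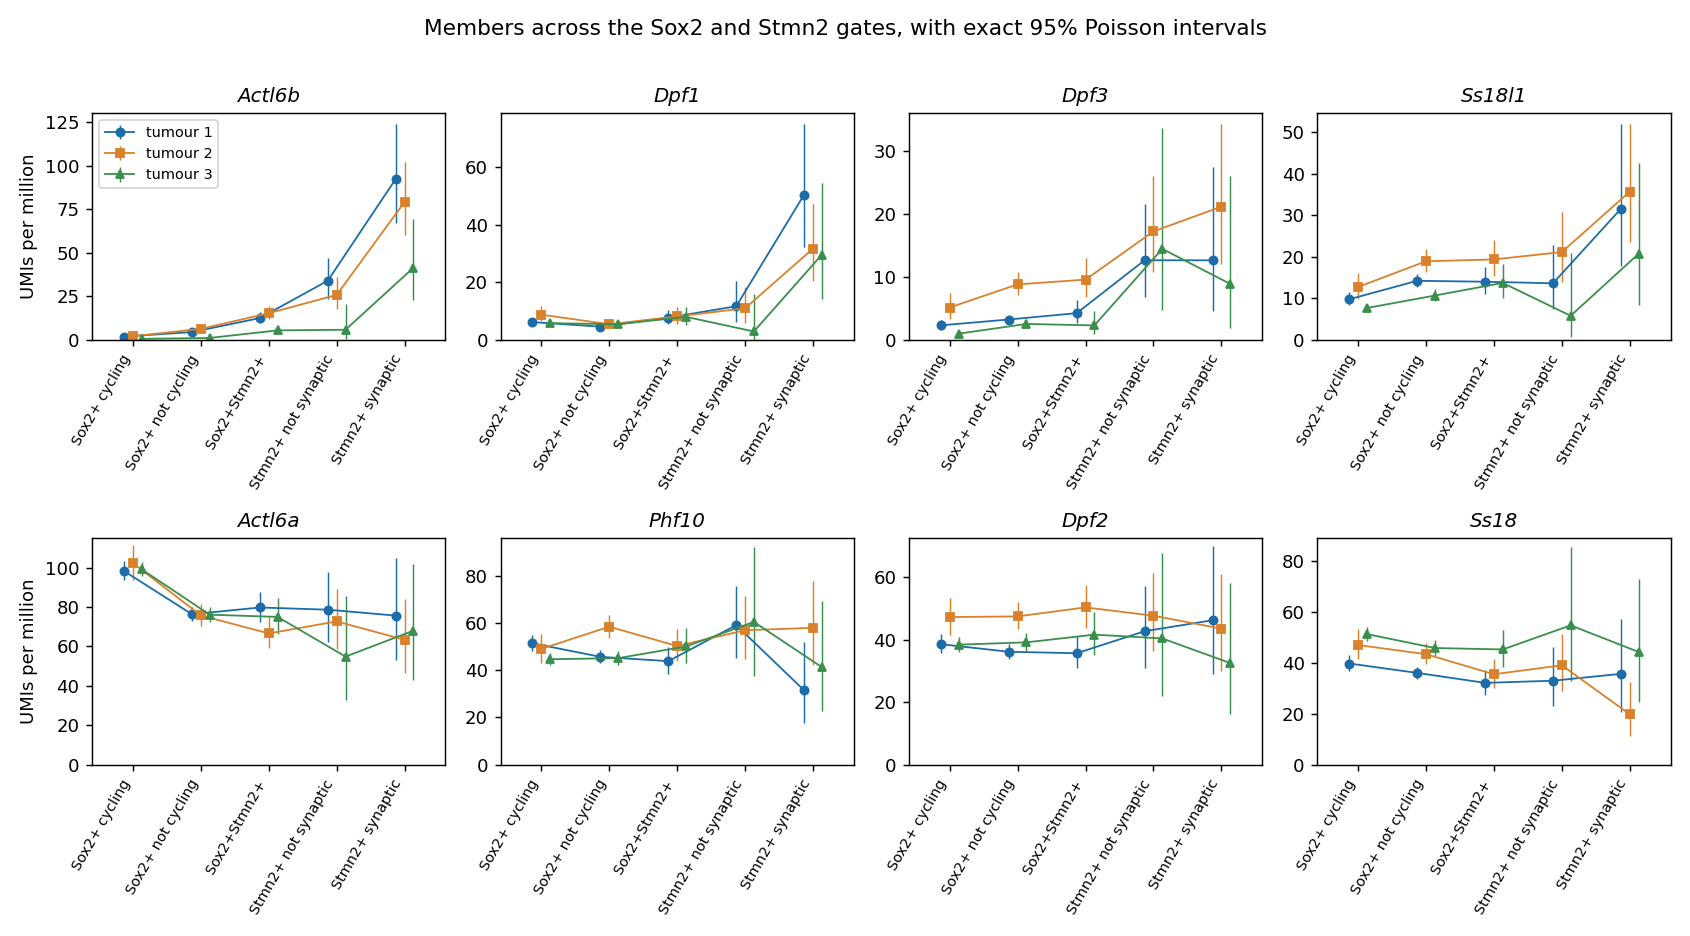
CPM (vertical axes, each with its own scale) of the 8 members over 5 groups of cells, from cycling Sox2+ to Stmn2+ with synaptic genes; lines join the values of 1 tumour and bars are exact 95% Poisson intervals. Actl6b is higher at each step in all 3 tumours, to 41.4 to 92.5, with the step between 5.42 and 5.77 in tumour 3 within counting error, and Actl6a drops after the cycling cells, from 98.3 to 102.3 to 75.8 to 76.3.

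In single cells, thinned to 2000 UMIs each so that gates of different depth can be compared, 10.4, 10.7 and 6.67% of Stmn2+ cells had an Actl6b UMI (20 of 192, 30 of 281 and 3 of 45 cells; exact 95% intervals 6.48 to 15.6, 7.32 to 14.9 and 1.40 to 18.3%). In Sox2+ cells the shares were 0.835, 1.07 and 0.237%. Immune cells, which should lack the gene, gave the background, with 0 of 549, 3 of 472 and 0 of 141 cells. By the floor of 3 cells, the counts of 0 allow shares of up to 0.546% in tumour 1 and 2.13% in tumour 3. The Sox2+ share of tumour 1 lay above that floor and that of tumour 3 below it, and the share of tumour 2 lay within the exact 95% interval of its immune share (0.131 to 1.85%). The thinning left out 133, 377 and 36 shallower Stmn2+ cells. Without thinning the shares were 14.8, 10.3 and 9.88% in Stmn2+ against 2.96, 3.57 and 1.23% in Sox2+ cells, and 0.343, 1.65 and 0.424% in immune cells, whose median depths were 3945, 6699 and 2704 UMIs.

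Dpf1 had a UMI in 5.17 ± 0.659% of thinned Stmn2+ and 1.29 ± 0.234% of Sox2+ cells, and Dpf3 in 3.20 ± 0.972 and 0.883 ± 0.573% (SD, n = 3), each higher in 3 of 3 tumours. The Dpf1 difference of 3.88 points was 1.51 with cells thinned to 1000 UMIs and 0.55 without thinning, where the order turned in tumour 3 (7.41% of Stmn2+ against 9.58% of the deeper Sox2+ cells). That of Dpf3, 2.31 points, was 1.32 and 1.54. Actl6a was seen in 12.1 ± 3.69% of Stmn2+ and 15.4 ± 1.16% of Sox2+ cells, and was higher in the Stmn2+ cells of 1 tumour of 3. UMIs of Actl6a and Actl6b were found in the same cell in 1, 4 and 1 thinned Stmn2+ cells, 0.521, 1.42 and 2.22% of them. At this depth a cell without a UMI is not shown to lack the transcript.

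In immune cells, 4 members were called lower than in Sox2+ cells and 1 higher, where 61.5% of all genes were called. Actl6a was at 24.5, 30.4 and 33.1 CPM against 84.9, 84.9 and 90.1 in Sox2+ cells, with no overlap, and differed by -0.95 ± 0.16 (SE) on the log2 scale (adjusted p = 3.77e-05, edgeR), or by -1.58 with total-count scaling. Dpf3 (-2.73 ± 0.68, adjusted p = 0.00179), Dpf1 (-1.72 ± 0.58, adjusted p = 0.0154) and Ss18l1 (-0.84 ± 0.25, adjusted p = 0.0074) were lower as well (SE, edgeR). Dpf3 had 2, 2 and 0 UMIs in the 3 immune sums, and Dpf1 2, 5 and 5, so the size of these differences is poorly set. The calls of Dpf1 and Ss18l1 were lost without tumour 1 (adjusted p = 0.0812 and 0.105), and that of Ss18l1 without the tumour as block (0.0834). Dpf2 was the member called higher (0.53 ± 0.18, SE, adjusted p = 0.0140, edgeR), but its CPM overlapped (34.6, 47.7 and 33.1 against 37.1, 47.4 and 38.7). Its call was lost without tumour 1 (adjusted p = 0.220) and without tumour 2 (0.185), and its direction turned with total-count scaling (-0.10). With that scaling Actl6b, Phf10 and Ss18 were also called lower. Over all genes 10017 were then called against 8359 in the main fit, and 24.7% of them were higher against 46.1%.

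Endothelial cells differed from Sox2+ cells in 2 members, Ss18l1 and Actl6a, both lower, where 55.1% of all genes were called. Ss18l1 was at 2.94, 9.30 and 1.41 CPM, from 3, 5 and 2 UMIs, differed by -1.64 ± 0.36 (SE) on the log2 scale (adjusted p = 0.000705, edgeR), and was called in all 15 alternatives. Actl6a was at 51.0, 59.6 and 65.1 (-0.45 ± 0.17, SE, adjusted p = 0.0309, edgeR) and was called in 4 of 15 alternatives. Dpf1 was at 15.7, 5.58 and 10.6 and was not called (1.11 ± 0.49, SE, adjusted p = 0.0621, edgeR), but was called higher in 8 of 15 alternatives. In mural cells Actl6b had 0 UMIs in sums of 401399, 129776 and 650663, which allows up to 7.47, 23.1 and 4.61 CPM, and so leaves the Sox2+ level within reach in every tumour.

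Dpf1 was also higher in the oligodendrocyte lineage cells of tumours 1 and 2. It was at 26.9 and 20.1 CPM there, against 5.19 and 6.55 in the Sox2+ cells of these tumours, with a log2 difference of 1.90 ± 0.52 (SE, n = 2 oligodendrocyte sums, adjusted p = 0.00875, edgeR). Over all genes, 29.4% were called in this comparison. The 11 neuronal markers summed to 1071 and 896 CPM in this gate against 466 and 565 in the Sox2+ cells, with 11 of 11 seen, and their part in the Dpf1 difference was not tested. Within the gate, cells with precursor genes (Pdgfra, Cspg4, C1ql1 or Gpr17) and no gene of mature oligodendrocytes had 13 and 8 Dpf1 UMIs, 49.2 and 64.2 CPM, and cells with mature genes alone had 1 and 2 UMIs, 3.79 and 3.93 CPM. The precursor cells numbered 43 and 21, with median depths of 6126 and 5453 UMIs against 1773 and 1560.5 in the 47 and 138 mature cells. Actl6a was lower in the lineage, at 55.2 and 45.7 (-0.85 ± 0.20, SE, adjusted p = 0.00337, edgeR), and Ss18 higher, at 64.1 and 58.0 (0.49 ± 0.18, SE, adjusted p = 0.0443, edgeR). The call of Ss18 was lost in 5 of 15 alternatives. Leaving out tumour 1 or tumour 2 leaves 1 sum in this gate, which is then assumed to vary like the sums of the other gates. No member was then called without tumour 1, and 1, Dpf1, without tumour 2. Without tumour 3, which has no sum in this gate, all 3 calls were made.

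In order of mean level over the 7 gates, Actl6b was highest in Stmn2+ cells, and this was the only step in its order that did not overlap with the next gate. The cells with neither Sox2 nor Stmn2 that were in no gate are not part of this order. They had Actl6b at 8.32, 20.9 and 1.92 CPM, from 241 UMIs in all, against 188 in the Stmn2+ gate. The Actl6b share of the pair was 9.31, 23.3 and 2.50% in them. Actl6a was highest in Sox2+ cells, apart from the next gate, and lowest in immune cells, again apart. Dpf1 had its highest mean in astrocytes, but at 3.08 and 50.2 CPM in the 2 tumours, from 1 and 12 UMIs, a range that left out the immune gate alone. Stmn2 was at 27.7 and 221.7 CPM in these astrocyte sums, and its part in the Dpf1 and Dpf3 levels was not tested. Dpf3 had its highest mean in astrocytes too, at 24.6 and 20.9 from 8 and 5 UMIs, with exact 95% intervals (10.6 to 48.5 and 6.79 to 48.8) that cover the Stmn2+ levels. The progenitor markers summed to 10515 and 6744 CPM in these sums, beside 9977 and 9765 of the astrocyte markers, and the neuronal markers to 477 and 971. In CPM, Phf10 was lowest in immune cells (23.9 to 31.3), as was Ss18 (24.7 to 30.8), both apart from the next gate. This rank depends on the scaling, since with TMM factors the immune cells differed from Sox2+ cells by -0.25 for Phf10 and -0.05 for Ss18 on the log2 scale (adjusted p = 0.159 and 0.947, edgeR), and Stmn2+ cells by -0.43 for Ss18. The 7 gates of Dpf2 overlapped with their neighbours throughout, with means from 38.5 to 56.5.

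Beside the members, 23 other SWI/SNF genes were measured. In Stmn2+ against Sox2+ cells 1 was called lower and none higher: Pbrm1, the polybromo subunit of the PBAF form, fell by 0.46 on the log2 scale (SE 0.14, adjusted p = 0.0349, edgeR), and was not called when any 1 of the tumours was left out. At an unadjusted p under 0.05 there were 2 higher and 3 lower, and with total-count scaling 2 were called higher and none lower, so no direction is given for the list. Its median difference was -0.07, against -0.09 over all genes and 0.16 over the members. In immune cells 4 were higher and 14 lower, where 61.5% of all genes were called, among them Smarcb1 (6.02), Smarcd2 (2.01) and Actb (1.95) higher and Bcl11a (-3.23), Bcl11b (-2.95) and Smarcd3 (-2.80) lower. With total-count scaling 3 were higher and 18 lower, where 10017 genes were called against 8359 in the main fit. Of those 10017 genes 24.7% were higher. Endothelial cells gave 5 higher and 14 lower, where 55.1% of all genes were called, with Smarcb1 (6.43), Smarcd2 (1.96) and Actb (1.19) and, lower, Bcl11b (-4.57), Bcl7a (-3.73) and Bcl11a (-3.40). Without tumour 1 there were 4 higher and 9 lower, and without tumour 2 or tumour 3 there were 5 and 12. The oligodendrocyte lineage gave 1 higher, Smarcb1 (6.62), and 10 lower, led by Bcl11b (-2.61), Bcl11a (-2.14) and Arid1b (-1.03), where 29.4% of all genes were called. In this gate 2 were higher and 8 lower with RLE size factors, 3 and 9 in DESeq2, and 1 and 7 without the tumour as block. Leaving out tumour 1 or tumour 2 leaves 1 sum in this gate, so those counts are not given. Between cycling and other Sox2+ cells none was called by edgeR, 0 passed an unadjusted p under 0.05, and 2 were called higher by DESeq2. Smarcb1 was deleted in the tumour cells by design, so its difference checks the gates.

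Rest (ENSMUSG00000029249), which encodes that repressor, was at 46.5, 58.9 and 48.2 CPM in Stmn2+ and 90.0, 102.5 and 93.8 in Sox2+ cells. The gates did not overlap, and the log2 difference was -1.11 ± 0.16 (SE, n = 3, adjusted p = 0.000155, edgeR). Immune (69.6, 89.6 and 62.4) and endothelial cells (97.1, 98.6 and 89.8), which had the lowest Actl6b levels beside mural cells, had Rest levels that were not called different from Sox2+ cells (adjusted p = 0.142 and 0.518, edgeR). In immune cells Rest CPM were lower in 3 of 3 tumours while the fitted log2 difference was 0.25, so no direction is given. In the oligodendrocyte lineage Rest was at 42.3 and 48.0 and called lower (-1.24 ± 0.20, SE, adjusted p = 9.66e-05, edgeR), while Actl6b was at 3.85 and 4.46, from 3 and 4 UMIs.

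The genes most like each member were taken by Pearson's r of log2(CPM + 1) over 22 sums of tumour and gate, among 13486 genes outside the marker lists. The sums share tumours and cell types, so r is a description. Actl6b was close to Svop (0.93) and Celsr3 (0.93), and Ss18l1 closest to Brsk2 (0.97), Gm38393 (0.95) and Snrnp70 (0.95), and Actl6a to Nfib (0.92), Eid2 (0.92) and Polr2m (0.91). Dpf1 was closest to Mical3 (0.91), Hook3 (0.86) and Kctd5 (0.85), and Dpf3 to Nqo1 (0.87), Zfp354b (0.85) and Zfp950 (0.85). Phf10 was closest to Rrm2b (0.90), Ddit4 (0.90) and Mosmo (0.90), Ss18 to Etv1 (0.88), Sept7 (0.87) and Tspan15 (0.85), and Dpf2 to Hykk (0.85) and Ankrd16 (0.79).

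Exons of Actl6a overlap those of Mrpl47, of Dpf1 those of Gm44632, of Dpf2 those of Gm42067 and of Phf10 those of 1600012H06Rik, in each case on the other strand. Counts of these 4 members are therefore uncertain to the extent that strand was not resolved, which the sources used here do not state. Markers of other cells were seen in the Stmn2+ gate. The 14 immune markers summed to 46.7 to 384 CPM against 32.9 to 148 in Sox2+ cells, with 10 to 14 of 14 seen, and the 14 oligodendrocyte lineage markers to 67.2 to 468 against 24.997 to 208, with 7 to 13 seen. The 12 astrocyte markers summed to 358 to 484 against 149 to 347. Their part in the Actl6b, Dpf1 and Dpf3 differences was not tested. Actl6b itself was at 0.46 to 2.47 CPM in immune cells, 3.85 and 4.46 in the oligodendrocyte lineage and 12.3 and 4.18 in astrocytes. Dpf1 was at 26.9 and 20.1 CPM in the oligodendrocyte lineage and 3.08 and 50.2 in astrocytes, and Dpf3 at 24.6 and 20.9 in astrocytes, against 16.1 to 23.9 and 11.7 to 18.7 in Stmn2+ cells.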

How the data were processed

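Matrices of 3 tumours were used. The deposited values are UMI counts per gene and barcode, which the authors made with Cell Ranger 3.1.0 on mm10 per the labels, with no normalisation and at least 500 UMIs per barcode. Barcodes under the 5th percentile of genes (384, 407 and 367 genes) or above a mitochondrial limit of 3 median absolute deviations (at most 20%) were removed. Scrublet (scanpy 1.11.5) scored doublets, and since its own threshold marked 0, 1 and 1 cells, a rate of 0.8% per 1000 cells (7.63, 6.05 and 4.00% of 9543, 7560 and 5006 cells) set the score limit. Cells above it were removed (692, 449 and 152), fewer than the rate because cells tied at the limit were kept.

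Non-neural gates needed at least 4 markers and 150 (immune), 40 (endothelial), 60 (mural), 30 (oligodendrocyte lineage) or 40 (astrocyte) marker UMIs per 10000, thresholds set after the markers had been seen. Cells near these gates (at least 3 markers and 50% of the threshold) were kept out of the Sox2+ and Stmn2+ gates. Fewer cells of a type and less RNA per cell cannot be told apart in a sum.

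Counts were summed per tumour and gate (at least 20 cells) and fitted with edgeR 4.0.16 (TMM, filterByExpr, tumour as block, since the sums of a tumour come from the same animal) in R 4.3.3, with all gates in 1 fit, and a second fit for the cycling split. The oligodendrocyte lineage entered with 2 sums. The SE given with edgeR was taken as the absolute log2 difference over the square root of the F statistic. It rests on the spread shared by all sums of the fit, and not on the tumours of the 2 gates alone. Alternatives were DESeq2 1.42.0, RLE size factors, no filter, no block, other cell filters and gates, and leaving out each tumour; total-count scaling was chosen after seeing the data. The edgeR step was also run on simulated counts, with 1 mean profile for all gates and no tumour effect. Changes were put only into genes expected above 20 counts in the median sum, so it does not test calls that rest on few UMIs. Levels are counts per 1000000 UMIs of the gate (CPM) with exact 95% Poisson intervals, and 3 UMIs set the floor of a count of 0.

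All 8 members, Smarcb1, Rest, the 3 largest called differences either way of a SWI/SNF list and the 3 genes most alike each member are named, except that some of the latter are not reported here. Members and lists were chosen with earlier results of these data known. The labels say only that the tumours are separate samples. With the tumour as block, edgeR's p-values rest on the spread of the sums that is left after gate and tumour. This spread is shared over all gates (22 sums and 12 residual degrees of freedom, or 25 and 14 in the cycling fit).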

Additional observations from a re-analysis of the deposited data

How the results depend on the processing

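Recomputed were all 8 members in Stmn2+ against Sox2+ cells and, in the others, those called by edgeR or DESeq2, so the calls that Actl6b, Phf10 and Ss18 gained in immune cells with total-count scaling are not among them. Of these 345 values over 15 alternatives, 282 kept their direction and side of the threshold, 37 lost and 16 gained a call, and 10 turned. In Stmn2+ against Sox2+ cells, Dpf2 turned from -0.16 to 0.0478 with gates from thinned UMIs, 0.0019 with a gate of 3 neuronal genes, 0.0486 with total-count scaling, 0.0069 with RLE size factors and 0.0135 in DESeq2, and ranged from -0.207 to 0.0238 when a tumour was left out (above 0 without tumour 3). Phf10 turned from -0.11 to 0.10 with total-count scaling, 0.0583 with RLE size factors and 0.0623 in DESeq2. In immune cells Dpf2 turned from 0.53 to -0.10 with total-count scaling. The number of members called in Stmn2+ against Sox2+ cells, 3 in the main analysis, was 5 with at least 2 UMIs of Sox2 or Stmn2 and 1 to 3 when a tumour was left out (1 without tumour 1 and 1 without tumour 2). Without the replicate block it was 1. In immune cells it was 2 to 5 when a tumour was left out, against 5. In endothelial cells it was 1 with no doublet removal, 1 with non-neural thresholds doubled, 1 without the replicate block and 1 to 2 when a tumour was left out, against 2. In oligodendrocyte lineage cells it was 0 to 3 when a tumour was left out, against 3, with the lone sum left without tumour 1 or 2 assumed to vary like the other gates. Between cycling and other Sox2+ cells the count of 1 became 0 with at least 2 UMIs of Sox2 or Stmn2, 0 in cells with at least 2000 UMIs, 0 with the gate of 3 neuronal genes, 0 without the replicate block, 0 to 1 when a tumour was left out, and 3 in DESeq2. The share of all genes called is not given for these settings, so a change in the members cannot be told apart from a change over all genes. The causes were not tested. The pair shares rose from Sox2+ to Stmn2+ cells under all 11 alternatives, by 28.0 to 42.9 points for Actl6b, 13.9 to 24.7 for Dpf1 and Dpf3 and 8.53 to 21.9 for Ss18l1, and by 30.5 to 35.4, 15.3 to 17.7 and 8.53 to 14.7 when a tumour was left out. Differences in the share of cells with a UMI moved with depth. That of Actl6b, 8.54 points at 2000 UMIs, was 3.39 at 1000 UMIs and 9.07 without thinning, and that of Dpf1 went from 3.88 to 1.51 and 0.55. Without thinning, where Stmn2+ cells are shallower, Actl6a went from -3.25 to -30.1, Ss18 from -1.45 to -21.0, Dpf2 from -0.72 to -17.2, Phf10 from 1.65 to -19.6 and Ss18l1 from 1.86 to -5.50, and Dpf2 was at 1.11 at 1000 UMIs. The Stmn2+ sums held 65 UMIs of Dpf3, 85 of Dpf1 and 92 of Ss18l1 in all.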
